A study of Mus musculus with 30 samples.

Results

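The secreted antagonists of WNT signalling were followed through fracture healing in lean and diet-induced obese (DIO) mice. The group comprised 9 genes taken by name: the dickkopf genes Dkk1, Dkk2 and Dkk3, the secreted frizzled-related genes Sfrp1, Sfrp2, Sfrp4 and Frzb, the WNT inhibitory factor Wif1, and the sclerostin gene Sost. All 9 were present among the 43629 genes of the deposited count table. Membership used no measured value, only what the proteins are known to do, although the list was drawn up with earlier results of these data known.

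WNT proteins are secreted ligands that bind frizzled receptors together with the LRP5 and LRP6 coreceptors. In the canonical branch this stabilises beta-catenin, and in the skeleton the branch is known for favouring bone formation. The antagonists act outside the cell at different points: SFRP proteins, FRZB and WIF1 bind the WNT ligands themselves, whereas DKK1, DKK2 and sclerostin bind the coreceptors. Sclerostin is known as a product of osteocytes, and FRZB was first described in cartilage.

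Transcripts were measured by poly(A) RNA-seq of the callus, the repair tissue that bridges a fracture, after an open mid-diaphyseal osteotomy of the right tibia stabilised with an intramedullary nail. All mice were male C57BL/6J animals, 20 weeks old at fracture. Lean mice received a low-fat diet and DIO mice a high-fat diet up to harvest, so the diet groups differ in feeding and in obesity together. Callus of both diets was analysed at d3, d5, d7 and d10, and DIO callus also at the later d14 and d21. There were 3 mice in each of the 10 groups, and lean d14 and d21 were not analysed here. Each of the 30 libraries came from 1 callus of 1 mouse, so the tests set group differences against the spread between mice. Library totals ran from 13247122 to 26365620 counts (median 16854427). Callus is a mixture of cells, and fewer cells of a type and less RNA per cell cannot be told apart in these values. In lean d10 replicate 1 the summed level of 7 chondrocyte markers was 64628 CPM, against 13128 and 10422 CPM in the other libraries of that group, and 6 skeletal muscle markers summed to 958 CPM there against 13682 and 9327 CPM. Frzb results and pathway calls that this library moved are given with and without it.

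The promoters of Dkk1, Sost, Wif1 and Sfrp2 are shown because the transcripts of the former 3 rose together while Sfrp2 fell. They are RefSeq sequences on build GRCm38.p6, read 5′ to 3′ on the gene's strand and cut where the GENCODE M21 gene starts: 81 bases for Dkk1 (chr19:30549666-30549746, minus strand), 250 for Sost (chr11:101967016-101967265, minus strand), 206 for Wif1 (chr10:121033754-121033959, plus strand) and 250 for Sfrp2 (chr3:83766071-83766320, plus strand). Capitals mark matches on either strand to 4 searched motifs, which are a TATA box (TATAAA), a TCF/LEF core (CTTTGA), a RUNX core (ACCACA) and a GC box (GGGCGG).
Dkk1: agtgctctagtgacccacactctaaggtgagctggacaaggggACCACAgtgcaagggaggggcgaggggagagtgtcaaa
Sost: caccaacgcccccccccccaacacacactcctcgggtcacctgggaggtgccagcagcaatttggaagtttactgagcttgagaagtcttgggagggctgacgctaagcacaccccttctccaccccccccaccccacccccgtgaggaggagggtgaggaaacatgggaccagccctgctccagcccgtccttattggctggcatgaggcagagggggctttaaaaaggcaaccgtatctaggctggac
Wif1: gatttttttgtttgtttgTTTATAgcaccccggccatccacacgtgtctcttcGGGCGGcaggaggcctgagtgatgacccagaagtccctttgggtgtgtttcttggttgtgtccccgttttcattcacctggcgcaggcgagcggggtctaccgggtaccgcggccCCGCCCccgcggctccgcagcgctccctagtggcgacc
Sfrp2: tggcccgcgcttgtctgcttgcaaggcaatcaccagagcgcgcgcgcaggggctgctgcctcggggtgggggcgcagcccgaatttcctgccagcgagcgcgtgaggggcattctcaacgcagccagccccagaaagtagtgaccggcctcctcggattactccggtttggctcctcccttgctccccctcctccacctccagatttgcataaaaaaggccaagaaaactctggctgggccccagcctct

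Each window begins 250 bases before the RefSeq start. For Dkk1 and Wif1 the bases between the GENCODE start and the RefSeq start are thus left out. The Dkk1 stretch held 1 RUNX match, which 4.83% of all 32851 promoters hold in the same 81 positions, counted from the beginning of the window. The Wif1 stretch held 1 TATA match, on the opposite strand, and 2 GC boxes, motifs that 9.38% and 25.8% of promoters hold within the same 206 positions. The Sost and Sfrp2 stretches held none of the 4 motifs, which in all promoters occur within these 250 positions in 12.4% (TATA box), 13.8% (TCF/LEF), 14% (RUNX) and 32.7% (GC box). The letters are a description of these windows and no statement on binding. RefSeq entries existed for 6 of the 9 members. Sfrp1, Sfrp4 and Dkk3 had none, and those of Dkk2 and Frzb are not shown.

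The 9 genes lie on 8 chromosomes (GRCm38, GENCODE M21). Dkk1 (ENSMUSG00000024868) spans chr19:30545863-30549665, Dkk2 (ENSMUSG00000028031) chr3:132085292-132180304, and Dkk3 (ENSMUSG00000030772) chr7:112116017-112159057. Sfrp1 (ENSMUSG00000031548) spans chr8:23411502-23449632, Sfrp2 (ENSMUSG00000027996) chr3:83766321-83774316, Sfrp4 (ENSMUSG00000021319) chr13:19623104-19632994 and Frzb (ENSMUSG00000027004) chr2:80411970-80447625. Wif1 (ENSMUSG00000020218) spans chr10:121033960-121100650 and Sost (ENSMUSG00000001494) chr11:101962458-101967015. Reads were assigned to whole genes, so no exon or isoform is resolved. Sfrp2 shares 347 exon bases (16.12% of its exon length) with Gm26771 on the opposite strand, and the strand setting of the counting is not given in the sources used here, so its counts may hold reads of that gene.

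Levels are CPM, counts relative to the size of the library, with library sizes scaled by the trimmed mean of M-values (TMM). To set genes beside each other the CPM were divided by exon length. On that scale Wif1 (42.4 CPM per kb), Sfrp2 (39.1) and Sost (35.4) had the highest means over the 30 libraries, and Dkk2 (1.26) the lowest, with 8 counts in its lowest library. The 9 transcripts summed to 156 ± 49.5 CPM per kb (SD, n = 3) in lean callus on d3 and 285 ± 20.4 on d10. In DIO callus the sum was 195 ± 37.4 on d3, 259 ± 32.3 on d10 and 177 ± 38.5 on d21.

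**Figure D1:**
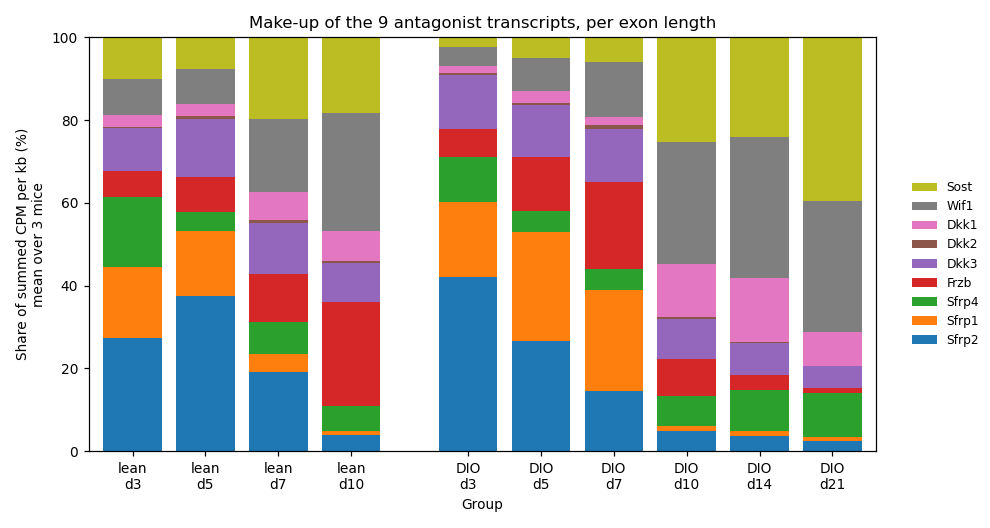
Share of the summed CPM per kb of exon (y axis, percent, mean over 3 mice) held by each of the 9 antagonist transcripts in each group of diet and day (x axis). Sfrp2 and Sfrp1 fill the lower part of the bars early, and Wif1 and Sost the upper part from d10 on.

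Sfrp2, a WNT-binding member of the frizzled-related family, held 27.3% ± 2.91 (SD, n = 3) of this sum in lean callus on d3 and 4% ± 1.21 on d10. In DIO callus its share went from 42.1% ± 16.4 on d3 to 2.49% ± 2.09 on d21. Wif1 took the opposite course, with 8.53% ± 1.77 on d3 and 28.6% ± 5.28 on d10 in lean callus. Sost held 2.44% ± 0.679 in DIO callus on d3 and 39.6% ± 4.52 on d21, the largest share of the 9 in that group.

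**Figure D2:**
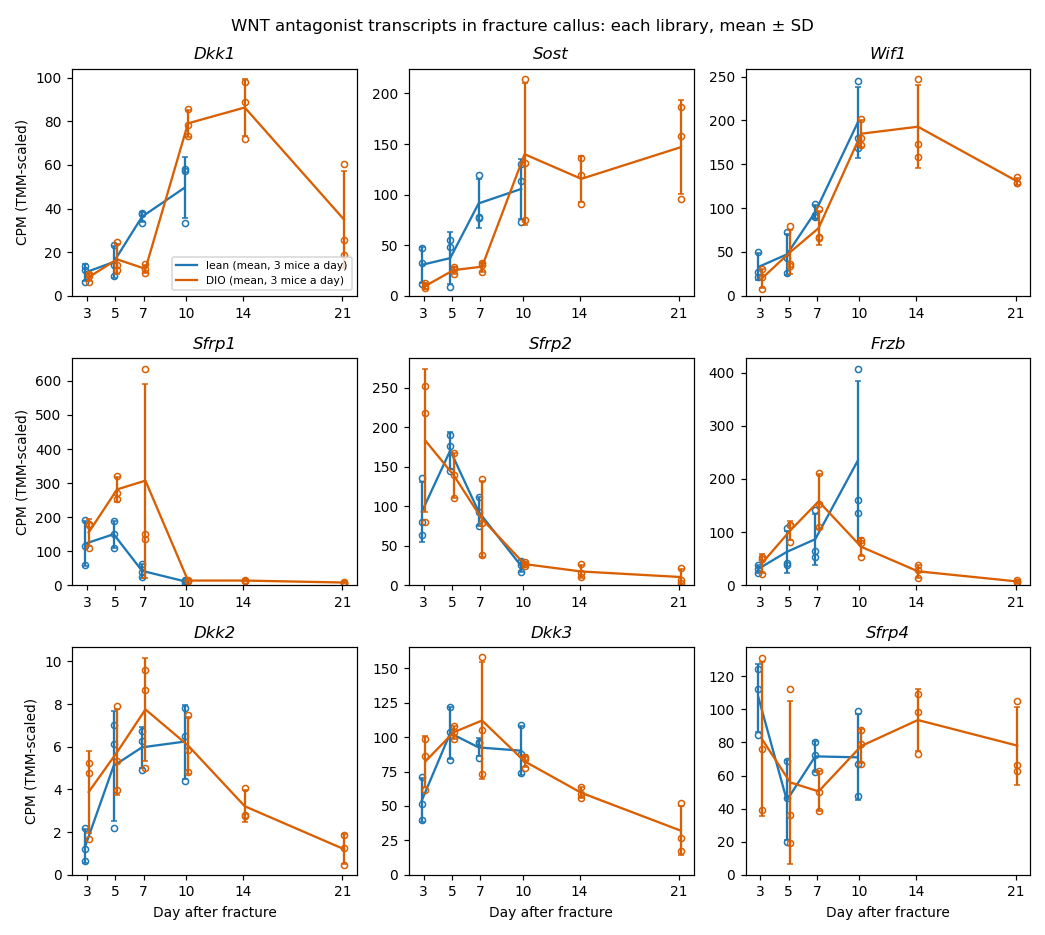
TMM-scaled CPM (y axis, linear) of the 9 antagonist transcripts against day after fracture (x axis). Open circles are single calli, lines join group means and bars are 1 SD (n = 3). Dkk1, Sost and Wif1 are higher on d10 than on d3 in both diets, and Dkk1 and Wif1 have lower means on d21 than on d14 in DIO callus. Sfrp1 and Sfrp2 drop by d10, and Frzb is highest on d10 in lean and on d7 in DIO callus.

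Time within a diet was tested first. In lean callus 7 of 9 members changed over d3 to d10 (edgeR quasi-likelihood F-test, adjusted p under 0.05), where 19% of all genes tested did. Sfrp4 (adjusted p = 0.115) and Sost (0.0768) did not pass. DESeq2 did call Sfrp4 (adjusted p = 0.0321), as did edgeR without lean d5 replicate 3 (0.0435). Sost was called by edgeR without lean d5 replicate 1 (0.0375), without the filter on low counts (0.0381), with the replicate number as a block (0.0087) and in 1 fit of all 30 libraries (0.0117). The calls of Dkk3 and Dkk2 did not hold in all leave-outs. That of Dkk2 was lost without lean d3 replicate 1 or 2 (adjusted p = 0.0905 and 0.104). That of Dkk3 was lost without any of 8 libraries (0.0509 to 0.123). It held without lean d3 replicate 3, lean d5 replicate 1 or lean d10 replicate 2 or 3. The Dkk3 call was also lost in 1 fit of all 30 libraries (adjusted p = 0.0751). In DIO callus 8 of 9 changed over d3 to d21, all but Sfrp4 (adjusted p = 0.474, and 0.0163 without DIO d5 replicate 1), where 59.1% of all genes did.

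Comparing lean d10 with d3, 8 of 9 members passed, against 29.3% of all genes. Of them 6 rose (15.2% of all genes did) and 2 fell (14.1%). The median log2 change over the 9 was 1.81, against 0.02 over all genes tested. The libraries of d3 and d10 did not overlap for 8 of the 9 members and for 42.7% of all genes tested. Of 7 leukocyte markers 5 were lower and 1 higher in the same comparison, and of 6 fibroblast and tendon markers 2 were lower and 1 higher. The part of these markers in the member changes was not tested.

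The coreceptor antagonist Dkk1 had 6.49, 11.9 and 13.7 CPM on d3 in lean callus, 9.01, 14.2 and 23.2 on d5, 37.8, 37.4 and 33.5 on d7, and 33.3, 58.1 and 57.2 on d10. Each library of d7 and d10 thus lay above each of d3 and d5. From d3 to d10 the rise was 2.23 on the log2 scale (SE 0.35, adjusted p = 0.00123). From d3 to d7 it was 1.77 (SE 0.34, adjusted p = 0.0258), but this call was lost without any of 5 of the 6 libraries (adjusted p 0.0697 to 0.122) and held without lean d3 replicate 3.

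Sost, the sclerostin gene, had 12, 47.3 and 32.6 CPM on d3 in lean callus, 8.3, 55.1 and 48.4 on d5, 78, 119 and 76.9 on d7, and 72.5, 130 and 114 on d10. The d3 and d5 libraries were spread widely, and every d7 and d10 library lay above them. The rise from d3 to d10 was 1.81 (SE 0.59, adjusted p = 0.0369) and was no longer called without lean d3 replicate 1 or 3 (adjusted p = 0.112 and 0.077) or lean d10 replicate 2 or 3 (0.0938 and 0.0728). In the same comparison 3 of 4 osteocyte and 6 of 7 osteoblast markers rose, and their part in the Sost change was not tested.

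Wif1, which binds WNT ligands through its WIF domain, had 20.9, 27.7 and 50.3 CPM on d3 in lean callus, 25.9, 43 and 72.6 on d5, 91.7, 105 and 90 on d7, and 168, 180 and 244 on d10. Its d10 libraries were above all earlier lean libraries. The rise from d3 to d10 was 2.60 (SE 0.37, adjusted p = 0.000775) and was called without any single library. The d10 against d7 difference was 1.06 (SE 0.35, adjusted p = 0.0991).

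Frzb, a frizzled-related protein of cartilage, had 30, 24 and 39.1 CPM on d3 in lean callus, 42.1, 38.5 and 108 on d5, 64.1, 53.9 and 142 on d7, and 407, 160 and 136 on d10. The d3 and d10 libraries did not overlap, while those of d7 and d10 did. From d3 to d10 it rose by 2.94 (SE 0.54, adjusted p = 0.00278). Without lean d10 replicate 1 the rise was 2.28 (adjusted p = 0.00644). The 7 chondrocyte markers, Col2a1, Acan, Sox9, Col9a1, Matn1, Comp and Cnmd, all rose in the same comparison, from a sum of 439 to 515 CPM on d3 to 10422 to 64628 CPM on d10; their part in the Frzb change was not tested.

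The 2 members that fell in lean callus were the ligand-binding Sfrp1 and Sfrp2. Sfrp1 had 116, 59.9 and 190 CPM on d3, 110, 189 and 152 on d5, 38.8, 24.9 and 63.7 on d7, and 6.33, 13.9 and 14.9 on d10. Sfrp2 had 80.2, 63.3 and 136 CPM on d3, 191, 177 and 145 on d5, 75, 93 and 112 on d7, and 16.7, 25.9 and 30.6 on d10. Both were lowest on d10, with every d10 library under every earlier one. Sfrp1 fell by 3.37 on the log2 scale from d3 to d10 (SE 0.49, adjusted p = 0.000815) and Sfrp2 fell by 1.92 (SE 0.30, adjusted p = 0.00116). Sfrp2 was the only member that edgeR called between d7 and d10 in lean callus, where 2.73% of all genes passed, 1.65% of all genes downward. It fell by 1.93 (SE 0.30, adjusted p = 0.0166), and the call was lost without lean d7 replicate 2 or 3 (adjusted p = 0.0597 and 0.0615). Sfrp1 fell by 1.85 in that step (SE 0.46, adjusted p = 0.0548). It was called without the filter (0.0238), with the replicate block (0.0266) and in 1 fit of all 30 libraries (0.0223). DESeq2 called 1802 of 16471 genes, with Sfrp1 (0.00125), Wif1 (0.0331) and Frzb (0.0307) among them. The block also called Wif1 (0.0333).

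The other members were Dkk2, Dkk3 and Sfrp4. Dkk2 rose from 1.35 ± 0.786 CPM (SD, n = 3) on d3 to 6.24 ± 1.73 on d10 in lean callus, by 2.22 (SE 0.48, adjusted p = 0.00618). Dkk3, a divergent family member whose role in WNT signalling is less settled, rose from 54.1 ± 16 to 90.2 ± 17.7 CPM, by 0.76 (SE 0.21, adjusted p = 0.021), which was not called without lean d3 replicate 1 or 2 or lean d10 replicate 3 (adjusted p = 0.0667, 0.0833 and 0.0695) or in 1 fit of all 30 libraries (0.0541). Sfrp4 went from 107 ± 20.6 to 71 ± 26 CPM, a difference of -0.58 (SE 0.36, adjusted p = 0.249).

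With edgeR single steps in lean callus called few members. Dkk1 and Dkk2 passed between d3 and d7, both upward, with 1.67% of all genes called and 1.32% called upward. The Dkk2 rise was 2.15 (SE 0.48, adjusted p = 0.0486) and, like that of Dkk1, was called among the leave-outs only without lean d3 replicate 3 (otherwise adjusted p 0.0889 to 0.194). Wif1 rose by 1.55 from d3 to d7 (SE 0.36, adjusted p = 0.0543). It was called without the filter (0.0194), with the replicate block (0.0091), in 1 fit of all 30 libraries (0.0274) and without lean d3 replicate 3 (0.0242). DESeq2 called 837 of 16471 genes in this step, Wif1 (0.00123), Dkk3 and Frzb upward and Sfrp1 downward among them. The block also called Dkk3 and Sost, and edgeR called Dkk3 without lean d3 replicate 3. No member passed between d3 and d5 with edgeR (0.449% of all genes did), though 4 had an unadjusted p under 0.05 and DESeq2 called 3, Sfrp4, Dkk2 and Dkk3. Over all 16471 genes, 2430 had an unadjusted p under 0.05 between d3 and d5, and DESeq2 called 583. Between d5 and d7 edgeR called no gene at all (0%, with 926 genes at an unadjusted p under 0.05 and 38 called by DESeq2), 5 members had an unadjusted p under 0.05, and DESeq2 called Sfrp1 alone.

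In DIO callus edgeR and DESeq2 each called 5 of 9 members between d7 and d10, against 13% of all genes with edgeR and 2636 of 16995 genes with DESeq2. The libraries of the 2 days did not overlap for 7 of the members, where 27.2% of all genes tested had no overlap. Dkk1, Sost and Wif1 rose (6.01% of all genes did), and Sfrp1 and Frzb fell (7.01%). Of the cell markers, 3 of 4 for adipocytes, 3 of 4 for osteocytes, 2 of 7 for osteoblasts and 1 of 7 for leukocytes were higher on d10. All 7 chondrocyte markers and 1 of 6 fibroblast and tendon markers were lower. No hypertrophic chondrocyte, skeletal muscle, endothelial or erythroid marker was called. The part of the markers in the member changes was not tested.

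Dkk1 had 6.48, 8.91 and 10.1 CPM on d3 in DIO callus, 24.5, 13.9 and 11.7 on d5, 14.4, 12.1 and 10.6 on d7, 78.1, 85.7 and 73.3 on d10, 88.6, 72.1 and 98.2 on d14, and 18.9, 25.5 and 60.3 on d21. It stayed at or below 24.5 CPM through d7 and was at 72.1 CPM or above in each library of d10 and d14. The d7 to d10 rise was 2.66 (SE 0.35, adjusted p = 9.19e-05), called without any single library. Between d14 and d21 it fell by 1.29 (SE 0.33, adjusted p = 0.0138). Without DIO d21 replicate 3, the highest of that group, the change was -1.95 (adjusted p = 0.000481), while the call was lost without DIO d14 replicate 3 (0.0528) or DIO d21 replicate 1 (0.0689).

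Sost had 12.6, 9.28 and 7.25 CPM on d3 in DIO callus, 28.2, 26.6 and 21.5 on d5, 32.3, 23.2 and 30.8 on d7, 214, 131 and 74.8 on d10, 90.9, 119 and 136 on d14, and 95.8, 187 and 158 on d21. All 9 libraries of d10 to d21 lay above all 9 of d3 to d7. From d7 to d10 it rose by 2.27 (SE 0.33, adjusted p = 0.000178). It was also the only member that edgeR called between d3 and d5, by 1.39 (SE 0.33, adjusted p = 0.0376), where 1.68% of all genes passed and 1.39% upward. Leaving out any 1 of the 6 libraries ended that call (adjusted p 0.0523 to 0.14). DESeq2 called 575 of 16995 genes in this step, with Frzb (1.32, adjusted p = 0.0097) and Wif1 (1.33, 0.01) among them. Both were also called by edgeR without the filter (0.00994 and 0.0118), and Wif1 without DIO d3 replicate 3 (0.0333).

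Of 6 osteocyte markers, Dmp1, Phex and Mepe rose between d7 and d10 in DIO callus and Cd44 did not pass. Fgf23 and Pdpn, counted at or near 0 in every group, were not tested. The annotation and strand setting of the counting are not given in the sources used here, so such counts need not mean absence from callus. The 6 markers summed to 457 to 815 CPM on d7 and 1892 to 2700 CPM on d10. The part of these markers in the Sost change was not tested.

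Wif1 had 7.98, 21.2 and 30.4 CPM on d3 in DIO callus, 79.2, 36.5 and 33.8 on d5, 99.5, 66.7 and 65.5 on d7, 202, 172 and 180 on d10, 173, 158 and 247 on d14, and 135, 128 and 128 on d21. Every library of d10 to d21 was above every earlier one. The d7 to d10 rise was 1.25 (SE 0.36, adjusted p = 0.0274), a call that was lost without any of 5 of the 6 libraries (adjusted p 0.0563 to 0.0966) and held without DIO d7 replicate 1.

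Sfrp1 had 181, 176 and 109 CPM on d3 in DIO callus, 322, 252 and 270 on d5, 151, 636 and 135 on d7, 15.2, 12.5 and 13.9 on d10, 13.7, 15.7 and 12.2 on d14, and 6.05, 9.93 and 8.17 on d21. DIO d7 replicate 2 stood far above the others of its day, and each library of d3 to d7 lay above each of d10. From d7 to d10 it fell by 4.48 on the log2 scale (SE 0.47, adjusted p = 1.15e-05), and the change was -3.38 (adjusted p = 5.7e-07) without DIO d7 replicate 2.

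Frzb had 20.8, 49.4 and 53.6 CPM on d3 in DIO callus, 113, 114 and 81.5 on d5, 212, 109 and 152 on d7, 52.9, 84.8 and 79.5 on d10, 27.9, 13.6 and 37.5 on d14, and 6, 9.11 and 6.48 on d21. It was highest on d7 and lowest on d21. It fell by 1.14 from d7 to d10 (SE 0.35, adjusted p = 0.0411). That call was lost without any of 5 of the 6 libraries (adjusted p 0.0577 to 0.167) and held without DIO d7 replicate 2, and it was also lost in 1 fit of all 30 libraries (0.104) and with the replicate block (0.0556). All 7 chondrocyte markers fell in the same step, from a sum of 15752 to 37574 CPM on d7 to 1794 to 5918 CPM on d10; their part in the Frzb change was not tested.

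Sfrp2 had 218, 252 and 80.3 CPM on d3 in DIO callus, 111, 167 and 140 on d5, 38.5, 134 and 78.9 on d7, 24.5, 29.5 and 26.5 on d10, 15.2, 26.4 and 10.8 on d14, and 2.59, 21.9 and 6.84 on d21. Its decline was spread over the whole course, and edgeR called no single step. The d7 to d10 step was called at -2.00 without DIO d7 replicate 1 (adjusted p = 0.0385), without the filter (0.0142), with the replicate block (0.0387) and in 1 fit of all 30 libraries (0.0346). The d14 to d21 step was called at -1.86 without DIO d21 replicate 2 (adjusted p = 0.0249). Sfrp4 ranged from 19.3 to 131 CPM over the DIO libraries, with group means between 50.4 and 93.6 CPM.

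Dkk2 ranged from 0.461 to 9.59 CPM and Dkk3 from 17.5 to 158 CPM there, both with their highest group mean on d7 and their lowest on d21. The high Dkk3 mean on d7 rested on DIO d7 replicate 2, at 158 CPM beside 73.2 and 105 CPM, while the d5 libraries had 98.8 to 108 CPM.

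The member calls of the late steps in DIO callus were all downward. Between d10 and d14 edgeR called no member (0.759% of all genes passed), 1 had an unadjusted p under 0.05, and DESeq2 called Frzb. Over all 16995 genes, 3006 had an unadjusted p under 0.05 there, and DESeq2 called 552. With edgeR Frzb was called in this step without DIO d14 replicate 3 (-1.79, adjusted p = 0.0294). Between d14 and d21, 19.6% of all genes passed and 9.03% did so downward; Dkk1, Dkk2 and Frzb were the members called. Frzb fell by 1.86 (SE 0.38, adjusted p = 0.00346). Dkk2 fell by 1.40 (SE 0.47, adjusted p = 0.0467), a call held only without DIO d21 replicate 2 among the leave-outs (otherwise adjusted p 0.0754 to 0.184). Dkk3 was at -0.88 (SE 0.30, adjusted p = 0.0502), and at -1.41 (adjusted p = 0.00196) without DIO d21 replicate 2. It was called by DESeq2 (adjusted p = 0.0278), in 1 fit of all 30 libraries (0.0338), with both other filters (0.0202 and 0.0497) and with the replicate block (0.0246). Between d5 and d7 no member passed with edgeR or DESeq2, none had an unadjusted p under 0.05, and edgeR called 0.0177% of all genes. Over all 16995 genes, 2411 had an unadjusted p under 0.05 in this step, and DESeq2 called 343. Without DIO d7 replicate 2 edgeR called Sfrp1 there (-0.96, adjusted p = 0.0453).

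Set against d3, DIO callus on d21 had 8 of 9 members changed, against 45.3% of all genes. Of these 3 were higher (23.5% of all genes were) and 5 lower (21.8%), with a median log2 change of -1.33 over the 9, against 0.03 over all genes. Sost rose by 3.94 (SE 0.35, adjusted p = 5.23e-07), Wif1 by 2.74 (SE 0.38, adjusted p = 2.41e-05) and Dkk1 by 2.07 (SE 0.35, adjusted p = 0.000156). The Dkk1 rise was 1.38 without DIO d21 replicate 3 (adjusted p = 0.000738). The log2 changes of the members that fell were -4.25 for Sfrp1, -4.11 for Sfrp2, -2.49 for Frzb, -1.67 for Dkk2 and -1.33 for Dkk3, with adjusted p from 3.41e-06 for Sfrp1 to 0.00797 for Dkk2. The libraries of the 2 days overlapped for Dkk2 and not for the other 7 of these members, where 54.9% of all genes tested had no overlap. Without DIO d21 replicate 2 the change of Sfrp2 was -5.26.

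Cell markers moved in the same comparison. All 6 erythroid markers were higher on d21, with a sum of 705 to 784 CPM on d3 and 24933 to 36133 CPM on d21. All 4 adipocyte markers were higher (4.92 to 19.2 CPM against 168 to 232 CPM), as were 3 of 4 osteocyte markers (349 to 543 CPM against 1592 to 1749 CPM for the summed list) and 3 of 7 leukocyte markers. Of the chondrocyte markers 3 of 7 were lower, and of the fibroblast and tendon markers 3 of 6 were lower and 1 higher. Osteoblast markers split into 2 higher and 3 lower of 7, while 2 of 6 skeletal muscle and 2 of 4 endothelial markers were lower. The part of these markers in the member changes was not tested.

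Lean and DIO callus were then compared on each day they share, which asks how obesity with its diet alters the repair tissue. With edgeR members were called on d7 and on no other shared day. On d7 DIO callus had less Dkk1 and Sost and more Sfrp1, and thus 3 of 9 members were called where 2.32% of all genes were, 1 higher (1.4% of all genes) and 2 lower (0.92%).

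**Figure D3:**
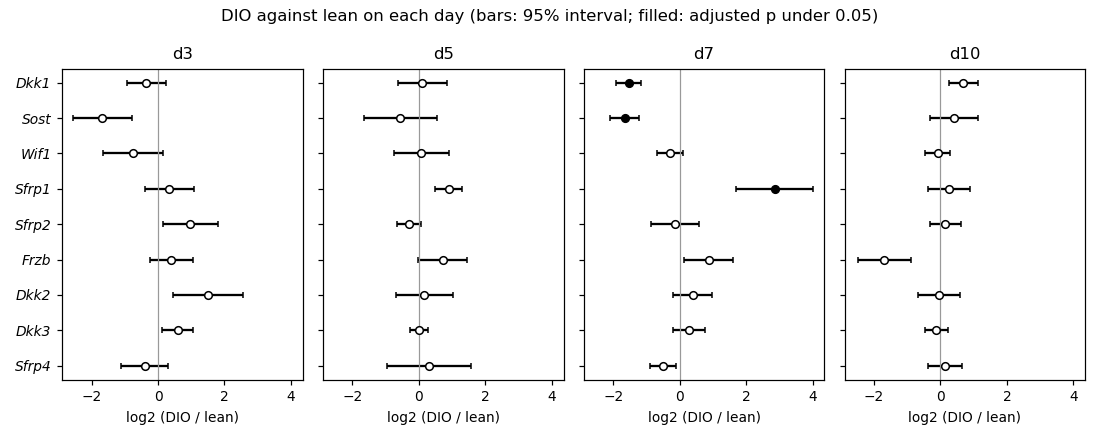
Log2 ratio of DIO to lean callus (x axis) for the 9 antagonists (y axis) on d3, d5, d7 and d10, from edgeR with 3 mice per diet. Bars are 95% intervals from the standard error and filled points have an adjusted p under 0.05: on d7 Dkk1 and Sost lie left of 0 and Sfrp1 right of it, and no point is filled on the other days.

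On d7 Dkk1 was at 10.6 to 14.4 CPM in DIO and 33.5 to 37.8 CPM in lean callus. The groups were far apart, with narrow spread in each. The DIO value was lower by a log2 difference of -1.54 (SE 0.19, adjusted p = 0.00876), and this held without any single library (adjusted p 0.0142 to 0.0489). Sost was at 23.2 to 32.3 CPM in DIO and 76.9 to 119 CPM in lean callus on that day, a difference of -1.65 (SE 0.22, adjusted p = 0.0118), which also held without any single library (adjusted p 0.016 to 0.0458). In 1 fit of all 30 libraries the Sost difference was not called (adjusted p = 0.0529). The osteocyte markers summed to 457 to 815 CPM in DIO and 908 to 1027 CPM in lean callus on d7, and none of the 4 tested passed, although Mepe had a difference of -0.71 (adjusted p = 0.0744). Of the other marker lists, 2 of 7 osteoblast and 2 of 7 leukocyte markers were called lower in DIO callus on d7, 2 of 7 chondrocyte markers higher, 1 of 2 adipocyte markers lower, and no muscle, fibroblast, endothelial, erythroid or hypertrophic chondrocyte marker was called. The part of these markers in the Dkk1, Sost and Sfrp1 differences was not tested.

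Sfrp1 on d7 was at 151, 636 and 135 CPM in DIO and 38.8, 24.9 and 63.7 CPM in lean callus. The groups did not overlap, which held for 3 of the 9 members and 22% of all genes tested on d7. The DIO mean of 307 ± 285 CPM (SD, n = 3) had replicate 2 far above the other libraries. The log2 difference was 2.86 (SE 0.60, adjusted p = 0.0423), and 1.77 (adjusted p = 0.0425) without DIO d7 replicate 2. Without lean d7 replicate 1, 2 or 3 it was not called (adjusted p = 0.12, 0.171 and 0.0767). The other 6 members did not pass on d7. Wif1 had a difference of -0.29 (approximate 95% interval -0.67 to 0.09). Frzb had one of 0.87 (SE 0.37, adjusted p = 0.279), beside the 2 of 7 chondrocyte markers called higher.

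On d3 edgeR called no gene between the diets (0%, with 2374 of 15772 genes at an unadjusted p under 0.05 and 726 called by DESeq2). Of the members 3 had an unadjusted p under 0.05, and DESeq2 called Sost. Sost was at 7.25 to 12.6 CPM in DIO and 12 to 47.3 CPM in lean callus, a difference of -1.68 (SE 0.45, adjusted p = 0.152 with edgeR).

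On d5 edgeR called no member, where 1.08% of all genes passed. Sfrp1 was the 1 member with an unadjusted p under 0.05, as 2913 of 15722 genes had. It was also the 1 member called by DESeq2, which called 1149 genes. Its DIO libraries (252 to 322 CPM) all lay above the lean ones (110 to 189 CPM), with a log2 difference of 0.90 (SE 0.21, adjusted p = 0.0878 with edgeR). On d5 the diets did not overlap for 23.2% of all genes tested and for 1 of the 9 members. Sost was at -0.56 (SE 0.56, adjusted p = 0.664), and at -1.04 (adjusted p = 0.0444) without lean d5 replicate 1. Frzb was called higher in DIO callus, at 1.34 (adjusted p = 0.0137), without lean d5 replicate 3.

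On d10 edgeR again called no gene (0%, with 1082 of 15341 at an unadjusted p under 0.05 and 41 called by DESeq2). Dkk1 and Frzb, 2 of the 9, had an unadjusted p under 0.05, and DESeq2 called Frzb. Dkk1 was at 73.3 to 85.7 CPM in DIO and 33.3 to 58.1 CPM in lean callus, the reverse order of d7, with a difference of 0.68 (SE 0.22, adjusted p = 0.686). Frzb was at 52.9 to 84.8 CPM in DIO and 136 to 407 CPM in lean callus, a difference of -1.69 (SE 0.41, adjusted p = 0.686). On d10 the diets did not overlap for 14.3% of all genes tested and for 2 of the 9 members. Without lean d10 replicate 1 the Frzb difference was -1.04 (adjusted p = 0.0753).

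Whether the diet difference itself changed between d7 and d10 was tested with an interaction term over the 24 libraries of the shared days. Of the members 3 passed, against 5.07% of all genes, 1 of them upward (1.7% of all genes) and 2 downward (3.37%). The diet difference of Dkk1 rose by 2.22 from d7 to d10 (SE 0.44, adjusted p = 0.00684), and this was called without any of the 12 libraries of those days. Those of Frzb and Sfrp1 fell by 2.56 (SE 0.65, adjusted p = 0.027) and by 2.62 (SE 0.71, adjusted p = 0.037). For Frzb the call was lost without lean d7 replicate 1 or 2, lean d10 replicate 1, DIO d7 replicate 1 or DIO d10 replicate 1 (adjusted p 0.0611 to 0.117), and without lean d10 replicate 1 the change was -1.90. For Sfrp1 it was lost without lean d7 replicate 1 or 2, lean d10 replicate 3, DIO d7 replicate 2 or any DIO d10 library (adjusted p 0.0507 to 0.147), and without DIO d7 replicate 2 the change was -1.51. The Sfrp1 call was also lost with the replicate block (-2.52, adjusted p = 0.0565). Sost had a change of 2.07 (SE 0.70, adjusted p = 0.0853). The chondrocyte markers passed this test for 6 of 7 genes, all downward, as did 2 of 4 hypertrophic chondrocyte markers, and their part in the Frzb result was not tested.

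A polynomial of degree 2 in day, with its 3 diet terms tested together over d3 to d10, called Sfrp1 (adjusted p = 0.0194) and Frzb (0.0342) among the members, where 8.13% of all genes passed. The Sfrp1 call was lost without lean d7 replicate 2 (0.0506) or DIO d7 replicate 2 (0.0537). That of Frzb was lost without any of 9 of the 24 libraries, among them lean d10 replicate 1 (0.0791), with adjusted p of 0.0511 to 0.0797; the others were lean d5 replicate 2, lean d7 replicates 1 and 2, DIO d5 replicates 1 and 2 and the 3 DIO d10 libraries. Sost was called by DESeq2 (adjusted p = 0.0303), and by edgeR without the filter (0.0341) or without lean d3 replicate 1 (0.0384) or lean d5 replicate 1 (0.0142), and Dkk1 by edgeR without DIO d5 replicate 1 (0.0457).

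Ordering the 10 groups by mean showed few sharp borders. For Dkk1 the order ran from DIO d14 (86.3 ± 13.2 CPM; SD, n = 3) and DIO d10 (79 ± 6.26) to lean d10 (49.5 ± 14.1) and lean d7 (36.2 ± 2.35), and down to DIO d3 (8.51 ± 1.86). The libraries of DIO d10 and lean d10 did not overlap, and all other neighbours in the Dkk1 order did. Sost ran from DIO d21 (147 ± 46.5) to DIO d3 (9.71 ± 2.7), with a gap free of overlap only between lean d7 (91.3 ± 24.1) and lean d5 (37.3 ± 25.3) and between DIO d5 (25.4 ± 3.46) and DIO d3. Group means differed 38.2-fold between the highest and lowest group for Sfrp1, 32.6-fold for Frzb, 17.5-fold for Sfrp2 and 15.1-fold for Sost, but only 2.38-fold for Sfrp4, in which all neighbours overlapped. The Frzb range was 21.9-fold without lean d10 replicate 1, and DIO d7 then had the highest mean (158 CPM, against 148 CPM for lean d10).

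Over the 30 libraries, which share days and diets, the members fell into sets by the correlation of log2 CPM. Pearson r was 0.89 for Dkk1 and Wif1, 0.85 for Dkk1 and Sost, and 0.85 for Wif1 and Sost. Sfrp1 and Sfrp2 had an r of 0.86 with each other and values from -0.64 to -0.78 with those 3. Dkk3 had an r of 0.77 with Frzb and 0.75 with Dkk2. The highest r of Sfrp4 with any other member was 0.31, with Wif1. These correlations are descriptions, since groups of the same day make the points depend on each other.

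Among 14799 other genes, those most like Sost were Gdpd2 (r = 0.92), Bglap2 (0.91) and Bglap (0.91), the latter pair encoding osteocalcin. Wif1 was nearest to Phex (0.97), a gene of osteocytes mutated in hypophosphataemia, Serpine2 (0.95) and Cp (0.94). Dkk1 was nearest to Fap (0.94), Ptprz1 (0.93) and Bdh1 (0.93). Frzb was nearest to Panx3 (0.97), Pcolce2 (0.96) and the PTH receptor gene Pth1r (0.96). Sfrp1 was nearest to Slc1a3, Chl1 and Scn7a (0.94, 0.94 and 0.93) and Sfrp2 to the smooth muscle actin gene Acta2, Fbln2 and Galnt17 (0.93, 0.93 and 0.92). Dkk2 was nearest to Tnmd (0.88), a gene of tendon, Rgs5 (0.86) and Mir99ahg (0.86), and Dkk3 to Clec11a, Thbs2 and Arhgef25 (0.92, 0.92 and 0.91). Sfrp4 had lower values, with Pls1, Sp6 and Diras2 at 0.68, 0.67 and 0.66. By rank correlation 0 to 2 of each member's 3 genes were among its nearest 3.

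**Figure D4:**
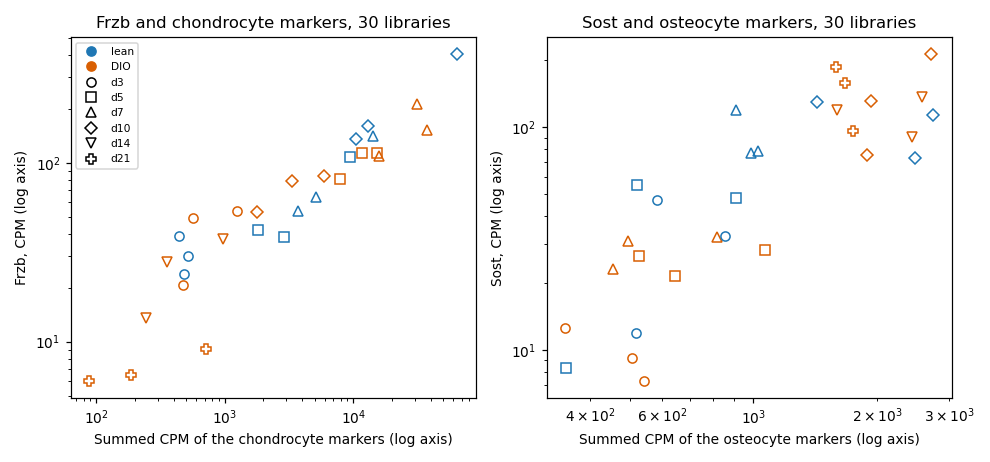
Frzb against the summed CPM of 7 chondrocyte markers (left) and Sost against the summed CPM of 6 osteocyte markers (right), 1 point per library, all axes logarithmic, colour for diet and shape for day. Lean d10 replicate 1, with 64628 CPM of chondrocyte markers and 407 CPM of Frzb, is the point farthest to the upper right on the left plot, and the d10 to d21 libraries lie together at the upper right on the right plot.

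The rest of the pathway was read from gene lists. Of 19 WNT ligand genes 12 were expressed enough to be tested in lean callus. From d3 to d10, 4 rose and 0 fell, where 29.3% of all genes passed and 15.2% rose, with Wnt4 up by 2.56 (SE 0.40, adjusted p = 0.00123), Wnt5b by 2.15 (SE 0.38), Wnt2b by 1.89 (SE 0.45) and Wnt11 by 1.31 (SE 0.34). The ligands summed to 372 CPM in lean d10 replicate 1, against 176 and 193 CPM in the other libraries of that group. Without this library the rise was 2.12 for Wnt4, 1.60 for Wnt5b and 1.45 for Wnt2b, all called (adjusted p 0.00238 to 0.0379), and 0.82 for Wnt11 (0.0581). Wnt11 was not called without lean d3 replicate 2 either (adjusted p = 0.0623). Their median change over the list was -0.22, against 0.02 over all genes. In DIO callus on d21 against d3, 7 of 12 ligands fell and 0 rose, beside 45.3% of all genes called and 21.8% lower, among them Wnt16 (-4.11, SE 0.42), Wnt5a (-2.18, SE 0.24), Wnt9a (-2.28, SE 0.39) and Wnt10b (-1.62, SE 0.32). The list median there was -1.86.

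Of 18 frizzled, coreceptor and related genes tested in DIO callus, 7 changed between d7 and d10, 6 of them downward, beside 13% and 7.01% of all genes. Fzd9 (-2.55, SE 0.35), Fzd2 (-1.67, SE 0.28), Fzd1 (-1.39, SE 0.21) and Fzd7 (-0.90, SE 0.19) fell. On d21 against d3, 11 of the 18 had fallen and 0 had risen, against 21.8% of all genes lower, Fzd2 with a change of -3.51 (SE 0.31, adjusted p = 4.61e-07), and with Fzd1, Ror2 and Fzd9 next by adjusted p. In lean callus 6 of 19 changed from d3 to d10, a share close to the 29.3% of all genes, with Lrp4, a coreceptor known to anchor sclerostin, up by 1.40 (SE 0.27), Fzd8 by 0.87 (SE 0.20) and Ryk by 0.61 (SE 0.17), and Fzd1 lower (-0.75, SE 0.19); the count was 3 without lean d3 replicate 2 or lean d10 replicate 1, and Ryk was not called then (adjusted p = 0.0889 and 0.0647).

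Other inhibitors moved in both directions. Of 8 tested in lean callus on d10 against d3, 4 passed, beside 29.3% of all genes. Sfrp5 rose by 4.0 (SE 0.72) and Notum, a WNT deacylase, by 1.94 (SE 0.45), while Draxin (-2.50, SE 0.21) and Apcdd1 (-1.12, SE 0.23) fell. In DIO callus Draxin and Trabd2b fell between d7 and d10, with changes of -1.48 (SE 0.28) and -1.46 (SE 0.29), 2 of 8 where 13% of all genes passed. On d21 against d3 there, 5 of the 8 changed, 4 of them downward, beside 45.3% and 21.8% of all genes.

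R-spondins amplify WNT signals through LGR receptors. Lgr6 rose by 2.83 (SE 0.47), Lgr4 by 1.27 (SE 0.27) and Rspo3 by 1.40 (SE 0.36) in lean callus from d3 to d10, 3 of the 6 tested, where 29.3% of all genes passed. The Rspo3 call was lost without lean d3 replicate 1 or 2 or lean d10 replicate 2 (adjusted p 0.0503 to 0.0549). Of 11 beta-catenin target genes, 4 changed in DIO callus between d7 and d10, where 13% of all genes did: Ccn4 rose by 0.96 (SE 0.21), and Nkd1 (-1.87, SE 0.37), Dact1 (-0.75, SE 0.20) and Myc (-0.70, SE 0.17) fell. The Dact1 call was lost without DIO d7 replicate 1 or DIO d10 replicate 1 or 3 (adjusted p 0.0502 to 0.0822) and in 1 fit of all 30 libraries (0.0584). On d21 against d3 in DIO callus 8 of the 11 targets were called, 2 higher and 6 lower. Over all genes 45.3% were called, 23.5% higher and 21.8% lower. The list median was -0.99, against 0.03 over all genes. The Axin2 call in that comparison was lost in 4 of 6 leave-outs. Axin2, a feedback inhibitor widely read as a WNT target, fell by 0.66 (SE 0.21, adjusted p = 0.0345) in lean callus from d3 to d10. This call was lost without any of 4 of the 6 libraries (adjusted p 0.0659 to 0.122) and held without lean d3 replicate 2 or lean d10 replicate 3, and it was lost in 1 fit of all 30 (0.0988) and without the filter (0.0624). That list had 3 of 11 genes called there, beside 29.3% of all genes, with Ccn4 up by 0.83 and Bambi by 1.05, and 1 without lean d3 replicate 1, lean d3 replicate 2 or lean d10 replicate 3.

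Signal transducers inside the cell, such as dishevelled and TCF proteins, passed for 7 of 16 genes in lean callus from d3 to d10, where 29.3% of all genes did. Ctnnbip1, an inhibitor of beta-catenin binding to TCF, rose by 0.91 (SE 0.14), Tcf7l2 by 1.42 (SE 0.25) and Pygo1 by 0.95 (SE 0.20), and Dvl3 fell by 1.53 (SE 0.32). In DIO callus 6 of 16 fell and 0 rose from d3 to d21, beside 45.3% of all genes called and 21.8% lower, and 10 were called without DIO d21 replicate 2.

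Between diets on d7, where 2.32% of all genes passed, edgeR called a single gene of these lists, Fzd9, 1 of 17 receptors and coreceptors tested. Fzd9 was higher in DIO callus by 1.88 (SE 0.22, adjusted p = 0.00629, with 81.6 against 22.4 CPM). DESeq2 called Fzd9 too and with it Wnt11, Fzd2, Sfrp5 and Trabd2b, at 1.08, 0.87, 1.24 and 0.74. No beta-catenin target passed there with edgeR or DESeq2, and 2 of the 11 had an unadjusted p under 0.05. Over all 15753 genes tested on d7, 2614 had an unadjusted p under 0.05, and DESeq2 called 944. With edgeR the diet difference changed from d7 to d10 for 6 genes of the lists, all downward, beside 5.07% of all genes called and 3.37% downward. By list they were 1 of 12 ligands tested, 3 of 19 receptors and coreceptors and 2 of 8 other inhibitors. Of 6 R-spondin and receptor genes, 11 beta-catenin targets and 16 signal transducers none was called. The 6 genes were Wnt11 (-2.11, SE 0.41), Fzd9 (-2.99, SE 0.59), Fzd2 (-1.53, SE 0.33), Fzd1 (-0.90, SE 0.26), Sfrp5 (-3.78, SE 0.84) and Trabd2b (-1.19, SE 0.34), with adjusted p from 0.00661 to 0.0467. DESeq2 called 1496 of 17057 genes, these 6 and also Fzd5 (1.06) and Ctnnbip1 (-0.60) among them. Without lean d10 replicate 1 the changes of Sfrp5 (-3.17, adjusted p = 0.0545), Trabd2b (-1.13, 0.12) and Fzd1 (-0.75, 0.162) were not called, while those of Wnt11 (-1.62), Fzd9 (-2.11) and Fzd2 (-1.35) were. Fzd1 was called among the leave-outs only without lean d10 replicate 2 or DIO d7 replicate 3, and not in 1 fit of all 30 libraries (adjusted p = 0.0691) or with a filter of 0.5 CPM in 1 library (0.0517). Trabd2b was lost in 1 fit of all 30 (adjusted p = 0.0745), and without any lean d7 library, lean d10 replicate 2, DIO d7 replicate 2 or 3, or DIO d10 replicate 2 or 3.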

How the data were processed

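Callus RNA of 30 mice was measured by poly(A) RNA-seq, 3 mice for each of 10 groups of diet and day. The authors demultiplexed reads with bcl2fastq, trimmed them with BBDuk, aligned them with HISAT2 2.1.0 to GRCm38 and counted reads per gene with HTSeq, and they deposited whole-number counts that were not normalized. The HTSeq version, strand setting and annotation are not given in the sources used here. Gene names and positions came from GENCODE M21, which held 42548 of the 43629 genes, and promoter sequences from RefSeq on GRCm38.p6.

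Counts were tested with edgeR 4.0.16 in R 4.3.3 (TMM factors, filterByExpr, two-sided quasi-likelihood F-test) with Benjamini-Hochberg adjustment over all 15341 to 17057 genes kept, at a threshold of 0.05. Days were compared within a diet over 12 lean or 18 DIO libraries, diets over the 6 libraries of a day, and the interaction and the time course over 24. A differing depth of 13247122 to 26365620 counts enters through the library sizes. Intervals are approximate 95% intervals of 1.96 standard errors to each side. This normal approximation is too narrow for groups of 3, and calls rest on the F-test alone. All 9 members passed the filter in each fit. The code was tested on simulated data. No pair of libraries of a group agreed within sampling noise (chi-square per degree of freedom 12.8 to 148 over 30 pairs).

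All 9 members are named, and from each pathway list up to 4 called genes per comparison by smallest adjusted p. A gene's likeness to a member is Pearson's r of log2 CPM (prior count 2) among genes with a mean of at least 1 CPM, of which the nearest 3 are named. The members, lists and tests were chosen with earlier results of these data known. Alternatives were RLE size factors, DESeq2 1.42.0, other filters, 1 fit of all 30 libraries, the replicate number as a block and leaving out each library in turn. Replicate numbers follow the order of the samples within a group. The labels give no replicate number and name no shared litter or day, so the replicate block pairs libraries by that order alone. Deviations of same-numbered libraries correlated above 0.1 in all 3 pairs only for lean d7 against d5 (0.232 to 0.314). Lean d14 and d21 were not analysed here.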

Additional observations from a re-analysis of the deposited data

Results flagged for a closer look

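The difference between DIO and lean callus changed from d7 to d10 for 3 members by the interaction test of edgeR. For Dkk1 it changed by 2.22 on the log2 scale (SE 0.44, adjusted p = 0.00684): each DIO library lay below each lean library on d7 and above each on d10. For Sfrp1 it changed by -2.62 (SE 0.71, adjusted p = 0.037), from DIO libraries all above lean libraries on d7 to overlapping ranges on d10. That call was lost without any of 7 of the 12 libraries, among them DIO d7 replicate 2 (-1.51, adjusted p = 0.147), and with the replicate block (0.0565). For Frzb it changed by -2.56 (SE 0.65, adjusted p = 0.027), from overlapping ranges on d7 to DIO libraries all below lean libraries on d10. That call was lost without any of 5 of the 12 libraries, among them lean d10 replicate 1 (-1.90, adjusted p = 0.117), the library with most chondrocyte markers. Over all genes tested, 22% had no overlap between the diets on d7 and 14.3% on d10. Groups of 3 are too small for a search for single outlying libraries.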

How the results depend on the processing

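No member's direction was reversed in any alternative whose value is printed. DESeq2 called more members in several comparisons: 8 over any lean day, 3 for lean d5 against d3, 6 for d7 against d3, 1 for d7 against d5, 4 for d10 against d7, 3 for DIO d5 against d3, 1 for DIO d14 against d10, 4 for DIO d21 against d14, and 1 each for the diets on d3, d5 and d10. It also called more of all genes there. Over any lean day these were 4848, against 3132 with edgeR. For the lean steps in that order they were 583 (74 with edgeR), 837 (275), 38 (0) and 1802 (450). For the DIO steps they were 575 (285), 552 (129) and 3832 (3335), and for the diets 726 (0), 1149 (170) and 41 (0). With no filter but 1 count the members called were 1 for lean d5 against d3, 2 for lean d10 against d7, 3 for DIO d5 against d3, and 1 each for DIO d14 against d10 and the diets on d3, d5 and d10. With the replicate block they were 1 for lean d5 against d3, 5 for lean d7 against d3, 3 for lean d10 against d7 and 0 for DIO d5 against d3. With all 30 libraries in 1 fit they were 2 for lean d10 against d7 and 0 for DIO d5 against d3. Under the block Sfrp1 was no longer called between diets on d7 (2.51, adjusted p = 0.0506) or in the interaction (-2.52, 0.0565), nor was Sost for DIO d5 against d3 (0.054) or Frzb for DIO d10 against d7 (0.0556). In the fit of all 30, calls were lost for Sost between diets on d7 (adjusted p = 0.0529) and DIO d5 against d3 (0.193), Frzb for DIO d10 against d7 (0.104), and Dkk3 over any lean day (0.0751) and lean d10 against d3 (0.0541). Dkk3 for DIO d21 against d14 was gained with DESeq2, both other filters, the block and the fit of all 30 (4 members called in each). The causes were not tested. For the settings other than DESeq2, and for the leave-outs, counts over all genes are not given here. A gain or loss of calls over all genes cannot be told apart there from one of the members. Leaving out single libraries gave 0 to 1 members for lean d5 against d3, 0 to 4 for lean d7 against d3, 0 to 1 for lean d10 against d7, 0 to 1 for DIO d5 against d3, DIO d7 against d5 and DIO d14 against d10, 3 to 5 for DIO d10 against d7, 1 to 5 for DIO d21 against d14, 0 to 1 for the diets on d5, 1 to 3 for the interaction and 0 to 3 for the time course. Of 90 mean levels, 1 moved by over 1 SD without TMM (Wif1 on d21 in DIO callus, 136 against 131 CPM). Low counts limit Dkk2, with 8 counts in its lowest library.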
